A study of Mus musculus and blank sample with 191 samples.

Results

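The mitochondrial respiratory chain was described here through its nuclear-encoded genes in the epithelium and stroma of the mouse uterus. Members were all targets of the filtered expression table whose symbol starts with Nduf, Uqcr, Sdh, Atp5, Cox4, Cox5, Cox6, Cox7 or Cox8, and 96 of 14881 targets met that rule. They comprised 38 subunits of complex I, 4 of complex II, 8 of complex III, 17 of complex IV (with Ndufa4 and its relative Ndufa4l2 counted there), 17 of complex V and 12 assembly factors. Cox7b2, Cox8b and Cox8c also fit the symbols but were in the unfiltered count table only, and the 13 mitochondrially encoded subunits were not analysed here.

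Regions of formalin-fixed uterus sections were profiled with GeoMx, an assay in which probes hybridised to RNA carry barcodes that are released by light from a chosen area and counted by sequencing. The females carried 1 copy of a dominant mutation, PV, in the gene of thyroid hormone receptor alpha 1 (Thra1 PV/+, labelled PV/N, here PV) or were wild-type (labelled N/N, here WT). Per the study's methods they were matched at metestrus of the estrous cycle, no treatment is named for the mice profiled here, and the tissue came from cores of a tissue microarray, so each mouse is seen through a small part of its uterus. A pathologist drew the regions from morphology and from staining for cytokeratin and smooth muscle actin, and the labels call them epithelium, with luminal lining and glands together, or stroma. On the first plate, 31 epithelium regions came from 6 PV mice, 29 from 8 WT mice, 21 stroma regions from 6 PV mice and 14 from 7 WT mice, since mouse WT4 had no stroma region there. PV mice were 2.4 to 6.3 months old and WT mice 4.0 to 9.0 months old. The replicate was the mouse, whose regions of one compartment were added up. The sums held 61691 to 13492531 counts, and mouse PV2, with 1 region per compartment, held the fewest counts in both.

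The compartments carried their markers on the first plate. All 10 columnar epithelium markers were higher in epithelium, with Krt8 up by 4.23 ± 0.16 (SE) and Epcam by 3.92 ± 0.17 on the log2 scale, while 9 of 10 fibroblast markers and 8 of 8 smooth muscle markers were lower, with Col1a1 at -3.00 ± 0.12 and Acta2 at -1.51 ± 0.17 (edgeR quasi-likelihood test, every adjusted p at most 6.97e-07 for the genes named). On the second plate alone, regions labelled epithelium and stroma were not separated: Krt8 differed by 0.36, Epcam by 0.09, Col1a1 by 0.35 and Acta2 by 0.52 on the same scale, all with an adjusted p of 1. The first plate was set for the values below by rule, not because of these markers, and the second plate enters only the alternatives. Thra, which carries the mutation, was 0.62 ± 0.28 (log2, SE) higher in PV than in WT epithelium (adjusted p = 0.593) and 0.99 ± 0.28 higher in stroma (adjusted p = 0.959), and neither difference was called.

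The respiratory chain passes electrons from NADH (complex I) and succinate (complex II) through ubiquinone, complex III and cytochrome c to oxygen at complex IV, and the proton gradient built on the way drives ATP synthesis by complex V. Most subunits are products of nuclear genes that are transcribed in nearly all cells. Several complex IV subunits exist as a widely expressed form and a form restricted to certain tissues, such as striated muscle, testis or hypoxic and contractile cells. Thyroid hormone is known to raise mitochondrial gene expression in many tissues.

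Promoters of 4 members are printed to set a pair of isoforms with opposite differences between the compartments (Cox6b1 and Cox6b2) beside another widely expressed complex IV subunit (Cox6a1) and the member with the largest difference (Ndufc2). Each holds 250 bases before and 50 after the gene start, 5′ to 3′ on the gene's strand, from RefSeq on GRCm38.p6. The positions are chr5:115348909-115349208 on the minus strand for Cox6a1, chr7:30626065-30626364 on the minus strand for Cox6b1, chr7:4753045-4753344 on the minus strand for Cox6b2 and chr7:97399753-97400052 on the plus strand for Ndufc2. Capitals mark matches on either strand to GCGCATGC (the core bound by NRF1) and CCGGAAG (an ETS motif bound by GABPA), which are regulators of nuclear respiratory genes; in Cox6a1 a match on each strand to the first of them overlaps.
Cox6a1: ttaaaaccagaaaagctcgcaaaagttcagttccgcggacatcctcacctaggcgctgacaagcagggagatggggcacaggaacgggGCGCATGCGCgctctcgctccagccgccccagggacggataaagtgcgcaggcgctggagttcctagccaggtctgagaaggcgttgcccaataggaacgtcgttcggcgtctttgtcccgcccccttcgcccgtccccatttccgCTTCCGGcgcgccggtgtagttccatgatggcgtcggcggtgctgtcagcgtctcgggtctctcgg
Cox6b1: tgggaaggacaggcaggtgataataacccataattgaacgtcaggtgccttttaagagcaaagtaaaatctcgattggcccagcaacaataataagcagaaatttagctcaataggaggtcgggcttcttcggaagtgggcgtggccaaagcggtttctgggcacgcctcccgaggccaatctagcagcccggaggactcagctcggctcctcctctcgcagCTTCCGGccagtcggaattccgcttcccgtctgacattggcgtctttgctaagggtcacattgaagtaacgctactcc
Cox6b2: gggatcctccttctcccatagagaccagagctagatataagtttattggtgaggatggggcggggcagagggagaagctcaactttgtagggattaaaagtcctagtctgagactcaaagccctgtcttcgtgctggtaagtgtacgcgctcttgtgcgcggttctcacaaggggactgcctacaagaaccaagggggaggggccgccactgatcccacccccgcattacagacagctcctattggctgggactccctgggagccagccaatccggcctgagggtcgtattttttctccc
Ndufc2: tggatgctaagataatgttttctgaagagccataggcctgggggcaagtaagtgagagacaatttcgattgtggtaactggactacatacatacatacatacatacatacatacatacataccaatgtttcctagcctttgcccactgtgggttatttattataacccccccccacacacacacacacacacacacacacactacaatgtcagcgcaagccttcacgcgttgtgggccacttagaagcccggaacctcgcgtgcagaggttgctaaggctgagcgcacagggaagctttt

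The promoter table held 79 of the 96 members. At least 1 promoter held GCGCATGC for 12 of these genes (15.2%), against 5.26% of 11780 targets of the filtered table with a promoter and 3.05% of all 27025 genes of the promoter table. CCGGAAG was found for 22 members (27.8%), against 17.2% of those targets and 9.93% of all genes. TNAAGGTCA, a motif of estrogen-related receptors, was found for 3 members (3.8%), against 1% of those targets and 1.43% of all genes. Of the 67 members with a promoter that were higher in epithelium (below), 14.9% held the first motif and 25.4% the second. Cox6b2, the one member lower in epithelium that the promoter table held, and Ndufc2 held none of the 3. The same was true of Cox5a, Cox5b, Cox7a2, Cox7a2l, Cox7b, Cox7c and Ndufa4, all of complex IV and higher in epithelium. Cox6a1 was the only complex IV member in the promoter table with GCGCATGC, so the printed promoters do not stand for the complex. These matches describe letters in a window and were not tested for binding.

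Most respiratory chain genes were more abundant in epithelium than in stroma. In the comparison within 13 mice with both compartments, 78 of 96 members (81.2%) were called higher in epithelium, against 28.6% of all targets, and 5 members (5.21%) were called lower, against 34.6% of all targets (edgeR quasi-likelihood test with the mouse as a block, adjusted p under 0.05 over 14881 targets). The median log2 fold change was 0.63 over the members and -0.05 over all targets. The quartiles were 0.43 and 0.85 over the members and -0.47 and 0.35 over all targets. Members together took 1.03 to 1.75% of the counts of the filtered targets in PV epithelium (median 1.38%) and 1.29 to 1.81% in WT epithelium (median 1.5%), against 0.754 to 1.29% in PV stroma (median 0.98%) and 0.935 to 1.4% in WT stroma (median 0.999%). Their share was larger in epithelium in 13 of 13 mice, by 1.23 to 1.61 times (median 1.42).

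**Figure D1:**
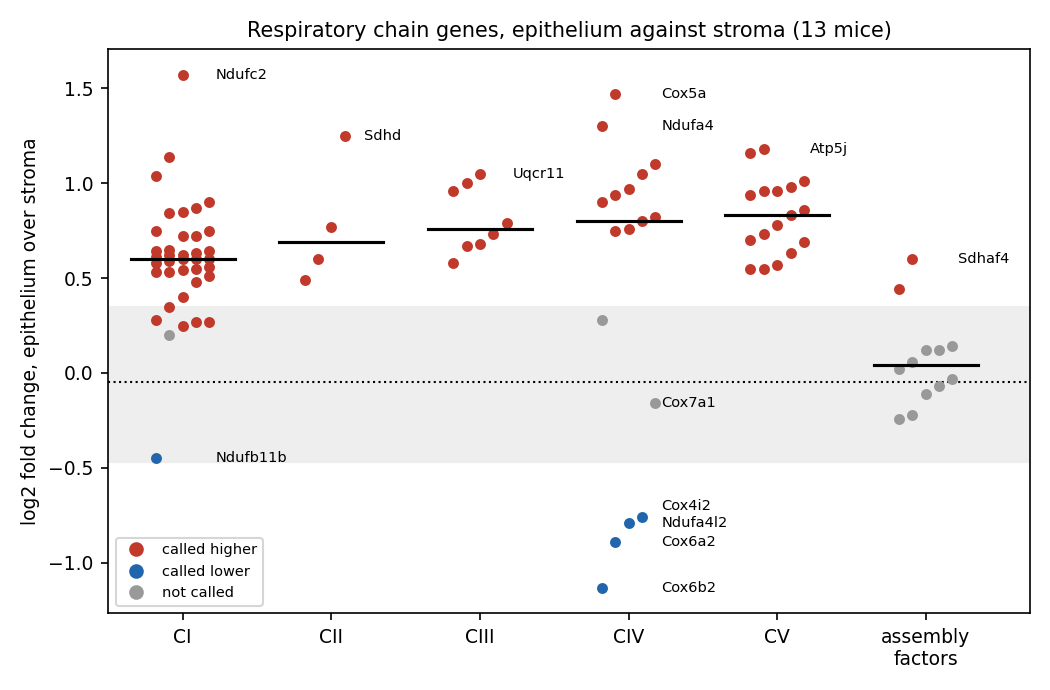
Log2 fold change of each member between epithelium and stroma (y axis) by complex (x axis, CI to CV for complexes I to V), fitted over 13 mice. Black bars are medians of a group, the dotted line is the median of all targets (-0.05) and the grey band spans their quartiles; complexes I to V lie above the line except for 5 members called lower and Cox7a1, and the assembly factors lie around it.

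Because regions mix cells, a lower level per cell and fewer expressing cells cannot be told apart. Marker levels also differed between the compartments. With the 10 columnar epithelium markers summed, epithelium held 11.19 to 12.93 log2 CPM, and stroma held 7.46 to 9.18. With the 10 fibroblast markers summed, epithelium held 9.10 to 11.04, and stroma held 11.86 to 14.17. No defining marker of either list was below the filter. The part of cell makeup in the members' values was not tested. With upper-quartile scaling the median of all targets moved to -0.19 and that of the members to 0.50. A change of scaling moves all targets by about the same amount. The distance between the medians, 0.68 under both scalings, is therefore no check of the scaling. Calls of all targets split into 33.8% higher and the rest lower with upper-quartile scaling, against 45.3% higher with TMM scaling.

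At the level of single regions, which are repeated areas of the same mice, the members' mean also tended to be higher in epithelium. Region means of all targets were not set beside it. The mean log2 Q3 value over the members ran from 5.60 to 6.43 (median 6.10) in 60 epithelium regions and from 5.12 to 5.96 (median 5.52) in 35 stroma regions. No stroma region lay above the epithelium median and no epithelium region below the stroma median, although the ranges overlapped. The SD between regions of one mouse was 0.08 in epithelium and 0.07 in stroma, and the SD between mouse means was 0.20 and 0.22.

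Complex I, the NADH dehydrogenase that feeds most electrons into the chain, had 36 of 38 subunits called higher in epithelium, with a median log2 fold change of 0.60. Its mean level was higher in epithelium in 13 of 13 mice, by 0.09 log2 in PV2 to 0.90 in PV6. Ndufc2, an accessory subunit of the membrane arm, ran from 6.92 to 9.11 log2 CPM in epithelium (median 8.00) and from 5.37 to 6.92 in stroma (median 6.48). The groups did not overlap, although the lowest epithelium value (PV2) and the highest stroma value were equal at 2 decimals, and 13 of 13 mice had more in epithelium, with a log2 fold change of 1.57 ± 0.10 (SE, adjusted p = 2.52e-10), the highest of all members. Ndufa12, an accessory subunit, ran from 4.95 to 8.01 log2 CPM in epithelium and from 4.97 to 6.99 in stroma (median 6.18). The epithelium sum of PV2 lay below every stroma value, and those of the other mice above them, with a fold change of 1.14 ± 0.12 (adjusted p = 3.05e-07). Ndufa3, also accessory, was higher by 0.90 ± 0.09 (adjusted p = 1.96e-07) in 13 of 13 mice.

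The 7 nuclear core subunits of complex I, which hold the flavin and the iron-sulfur clusters or bind ubiquinone, had smaller differences than its other subunits when set side by side. Their median was 0.28, from 0.20 for Ndufv1 to 0.72 for Ndufs8, and that of the 31 others was 0.62. This split was made after the values were seen and has no test. Ndufv1, the flavin subunit, was the one member of the complex that was not called (adjusted p = 0.116). Ndufb11b, a close relative of Ndufb11 whose probe may share target RNA with it, was called lower at -0.45 ± 0.12 (adjusted p = 0.00377), while Ndufb11 was higher by 0.54 ± 0.10; Ndufb11b lay at a median of 1.77 times the negative probes, and its call was lost without the mouse as a block (adjusted p = 0.0816) and with both plates (adjusted p = 0.0998).

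Complex II, succinate dehydrogenase, links the chain to the tricarboxylic acid cycle, and all 4 of its subunits were called higher. Sdhd, a membrane anchor, ran from 7.00 to 7.67 log2 CPM in epithelium (median 7.38) and from 5.69 to 6.46 in stroma (median 6.10). These ranges did not overlap, and the fold change was 1.25 ± 0.10 (adjusted p = 9.18e-09). Sdha, the flavoprotein, was higher by 0.77 ± 0.12, Sdhc, the other anchor, by 0.60 ± 0.09, and Sdhb, the iron-sulfur subunit, by 0.49 ± 0.09. The epithelium and stroma ranges of those 3 overlapped.

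All 8 members of complex III, which passes electrons from ubiquinol to cytochrome c, were called higher, with a median of 0.76. Uqcrc2, a core protein, ran from 5.75 to 6.76 log2 CPM in epithelium (median 6.31) and from 3.46 to 5.68 in stroma (median 5.40), without overlap, and differed by 0.96 ± 0.09 (adjusted p = 6.64e-08). Uqcrfs1, the Rieske iron-sulfur protein, was higher by 1.00 ± 0.09 and the small subunit Uqcr11 by 1.05 ± 0.10. The partner core protein Uqcrc1 had the smallest difference of the complex, 0.58 ± 0.12.

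Complex V, the ATP synthase, had 17 of 17 members called higher with a median of 0.83, and its mean was higher in epithelium in 13 of 13 mice, by 0.49 in PV1 to 1.17 in PV6. Atp5j, coupling factor 6 of the stalk, ran from 7.50 to 9.08 log2 CPM in epithelium (median 8.57) and from 6.38 to 7.84 in stroma (median 7.41). The epithelium sum of PV2 lay inside the stroma range, and the fold change was 1.18 ± 0.09 (adjusted p = 7.37e-09). Atp5b, the catalytic beta subunit, was higher by 1.16 ± 0.12, Atp5j2 of the membrane part by 1.01 ± 0.09 and Atp5o of the stalk by 0.96 ± 0.08. Atp5g2, which encodes a copy of the membrane ring subunit, had a difference of 0.55 ± 0.09, at the low end of the complex, and its sister genes Atp5g1 and Atp5g3 differed by 0.73 ± 0.11 and 0.98 ± 0.11. The F1 head subunits had a median of 0.89 and the other subunits 0.78.

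**Figure D2:**
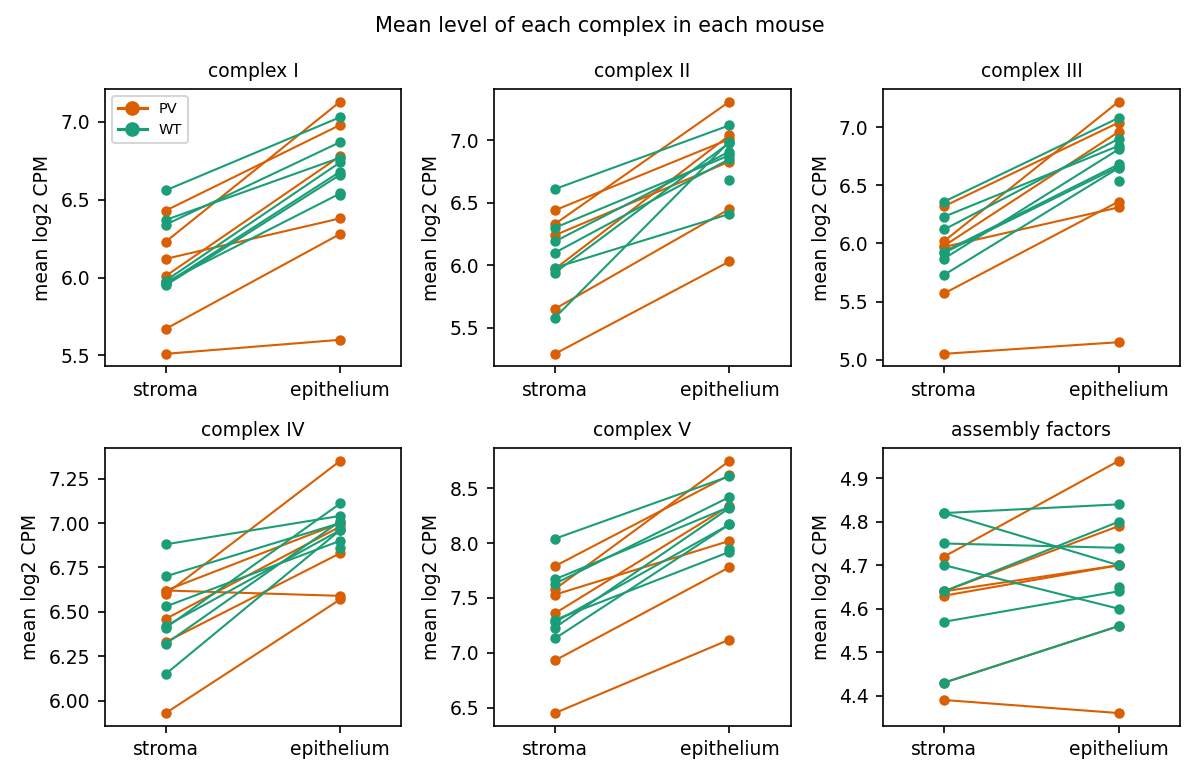
Mean log2 CPM of the members of each complex (y axis) in stroma and epithelium of each mouse, with lines joining the compartments of one mouse (PV orange, WT green). Lines rise in 13 of 13 mice for complexes I, II, III and V, in 12 of 13 for complex IV and in 9 of 13 for the assembly factors; mouse PV2 is lowest in complexes I to V in both compartments, and WT4 has epithelium only.

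Complex IV, cytochrome c oxidase, divided by isoform. Of its 17 members 11 were called higher and 4 lower, with a median of 0.80. Cox5a, a subunit on the matrix side, ran from 6.73 to 8.63 log2 CPM in epithelium (median 8.16) and from 5.86 to 7.07 in stroma (median 6.57). The epithelium sum of PV2 lay inside the stroma range, and the fold change was 1.47 ± 0.11 (adjusted p = 1.81e-09). Ndufa4, first assigned to complex I and now counted with complex IV, was higher by 1.30 ± 0.12 (adjusted p = 7.16e-08) in 13 of 13 mice. Cox6c (0.28 ± 0.17, adjusted p = 0.176) and Cox7a1 (-0.16 ± 0.15, adjusted p = 0.351) were not called.

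The widely expressed isoforms were higher in epithelium. Cox4i1, the subunit that regulates the complex by ATP binding, ran from 8.56 to 9.76 log2 CPM in epithelium (median 9.48) and from 7.26 to 8.93 in stroma (median 8.38), and was higher by 0.97 ± 0.11 in 13 of 13 mice. Cox6b1, which bridges the dimer, ran from 7.09 to 8.14 (median 7.65) and from 5.82 to 7.14 (median 6.66), and was higher by 1.05 ± 0.11 in 13 of 13 mice. The epithelium sums of PV2 and PV5 lay inside the stroma range for Cox4i1, and that of WT4 for Cox6b1. Cox6a1 was higher by 0.80 ± 0.12, Cox7a2 by 0.82 ± 0.10, Cox7a2l, a factor of supercomplex assembly, by 0.76 ± 0.11 and Cox8a by 1.10 ± 0.13.

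Their restricted relatives did the opposite or were not called. Cox6b2, known from testis, ran from 3.09 to 4.95 log2 CPM in epithelium (median 3.72) and from 4.11 to 6.06 in stroma (median 4.56). It was lower in epithelium in 12 of 13 mice with overlapping ranges, at -1.13 ± 0.16 (adjusted p = 7.91e-06). Cox6a2, the heart and skeletal muscle form, ran from 2.67 to 3.99 (median 3.25) and from 2.89 to 5.00 (median 4.08), and was lower in 13 of 13 mice at -0.89 ± 0.12 (adjusted p = 2.81e-06). Cox4i2, a form induced by low oxygen, ran from 1.92 to 3.99 (median 3.47) and from 2.44 to 4.87 (median 4.02), and was lower in 12 of 13 mice at -0.76 ± 0.15 (adjusted p = 3.67e-04). Ndufa4l2, another gene of the hypoxia response, ran from 2.74 to 4.95 (median 3.23) and from 1.96 to 4.45 (median 3.94), and was lower in 10 of 13 mice at -0.79 ± 0.18 (adjusted p = 9.58e-04). In PV2 epithelium Cox6a2 and Cox4i2 lay at 3.99, and in PV2 stroma Ndufa4l2 lay at 3.46, each the level of 1 count in that sum.

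These 4 lay close to the background of the assay, at a median of 2.56 (Cox6b2), 1.76 (Cox6a2), 1.88 (Cox4i2) and 1.55 (Ndufa4l2) times the negative probes, against a median of 20.6 over the members. Subtracting the negative-probe level left them called lower, with larger differences of -1.67, -1.60, -1.29 and -1.27 in the same order. Such a subtraction widens the ratio of values this close to the background, so the larger differences are no check of it. Ndufa4l2 was not called from per-mouse means of log2 Q3 values (-0.43, adjusted p = 0.117). Beside them, all 8 smooth muscle markers were lower in epithelium, their summed level running from 7.43 to 8.81 log2 CPM there and from 9.09 to 10.95 in stroma, and so were 5 of 5 pericyte markers (6.13 to 7.07 against 8.07 to 9.05), with none of these markers below the filter. Of 6 striated muscle and brown fat markers 1 passed the filter, at 3.07 to 5.52 in epithelium and 3.45 to 5.95 in stroma. The part of these cells in the isoform differences was not tested.

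**Figure D3:**
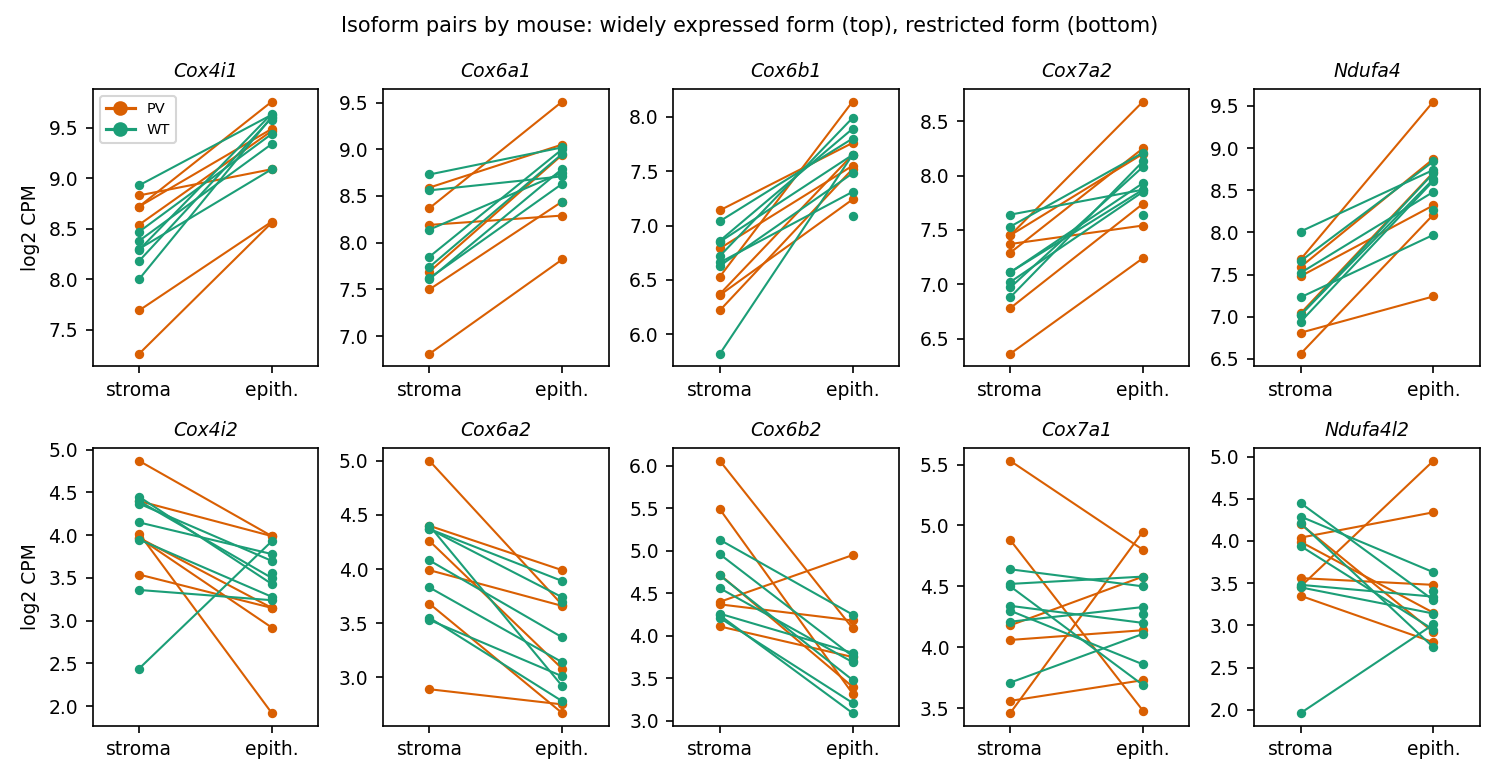
Log2 CPM (y axis, a scale of its own in each panel) in stroma and epithelium of each mouse for 5 widely expressed forms (top) and their tissue-restricted relatives (bottom), with lines joining the compartments of one mouse (PV orange, WT green). The top row rises in 13 of 13 mice in each panel, Cox6a2 falls in 13 of 13, Cox4i2 and Cox6b2 in 12 and Ndufa4l2 in 10, and Cox7a1 goes both ways.

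The assembly factors, which build complexes I and II without staying in them, moved little. Of 12, 2 were called higher and none lower, with a median of 0.04. Sdhaf4, which helps to mature succinate dehydrogenase, ran from 4.68 to 6.25 log2 CPM in epithelium (median 5.26) and from 4.32 to 4.97 in stroma (median 4.65), and was higher by 0.60 ± 0.10 (adjusted p = 5.62e-05) in 13 of 13 mice, with 4 epithelium sums inside the stroma range. Ndufaf3, an early factor of complex I, was higher by 0.44 ± 0.12 (adjusted p = 0.00311), and lost its call in per-mouse means of log2 Q3 values (0.24, adjusted p = 0.121) and with both plates (0.19, adjusted p = 0.138). Ndufaf6, at -0.24 ± 0.13, was not called (adjusted p = 0.124) but was called lower with upper-quartile scaling, as was Ndufaf4. Assembly factors lay at 2.48 to 7.42 times the negative probes.

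PV2 bore on the overlaps. Its epithelium sum held 19 members at 1 count, equal to 3.99 log2 CPM, and its stroma sum held 8, while no other library held a member at 1 count. Over all mice, the epithelium and stroma values of 3 members did not overlap, all higher in epithelium (2.14% of all targets did so), and none was lower without overlap (2.83% of all targets). Without PV2, a setting chosen after the data were seen, these counts were 8 (3.53% of all targets) and 0 (4.05%), and the 8 were Ndufc2, Ndufa12, Sdhd, Uqcrc2, Cox5a, Cox8a, Atp5j and Atp5j2. Members higher in epithelium in every mouse numbered 45 with PV2 and 61 without it. This was not counted over all targets, so the numbers do not set the members apart from them.

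On the first plate, members were called higher in epithelium within each genotype. In PV mice 72 members (75%) were called higher, against 22.7% of all targets, and in WT mice 75 (78.1%), against 22.1%. Of these, 71 were called in both, which is 71 of the 72 and 71 of the 75, and the same 5 members were called lower in both. Those lower calls depended on the setting. With DESeq2, and with the negative-probe level subtracted, they were Cox4i2, Cox6a2 and Cox6b2 in PV and Cox6a2, Ndufa4l2 and Cox6b2 in WT. With both plates no member and no target was called within PV mice (members' median 0.19), while 68 members were called higher and 4 lower within WT mice (median 0.40). On the second plate alone nothing was called in either, and the medians were -0.24 in PV and 0.13 in WT. The test of the difference itself, the genotype by compartment term, called 0 of 96 members and 0% of all targets. It gave 3 members and 1066 targets an unadjusted p under 0.05, and DESeq2 called 0 members and 1 target.

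Those 3 members had these values. Ndufc2 was higher in epithelium by 1.30 ± 0.15 in PV and by 1.83 ± 0.13 in WT, a difference of -0.53 ± 0.19 (adjusted p = 0.601). Ndufb2, an accessory subunit of complex I, was higher by 0.75 ± 0.13 in PV and 0.35 ± 0.11 in WT, a difference of 0.40 ± 0.17 (adjusted p = 0.657). Cox7a2l was higher by 0.52 ± 0.16 in PV and 0.99 ± 0.14 in WT, a difference of -0.47 ± 0.22 (adjusted p = 0.679). None of the 3 passed the adjustment over all targets.

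Between PV and WT no member was called in either compartment. PV mice were 2.4 to 6.3 months old and WT mice 4.0 to 9.0, so genotype and age cannot be fully told apart. In epithelium 0 of 96 members and 0% of all targets were called, with a median log2 fold change of 0.00 over the members and -0.01 over all targets; 1 member and 1223 targets had an unadjusted p under 0.05, and DESeq2 called 0 members and 28 targets. The medians by complex were -0.02 for complex I, 0.07 for complex II, 0.02 for complex III, 0.00 for complex IV, -0.02 for complex V and 0.02 for the assembly factors. With age as a covariate, 0 members and 10 targets were called in epithelium, and 1 member and 1491 targets had an unadjusted p under 0.05. Standard errors of single members ran from 0.13 to 0.31 (median 0.21), so that differences of that size could not be resolved. Larger differences, such as that of Ndufc2 below, were not called either. Values that miss the threshold therefore do not show equal levels.

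Ndufc2 was the member with the lowest p in epithelium. It ran from 6.92 to 8.01 log2 CPM in PV (median 7.94) and from 7.65 to 9.11 in WT (median 8.03). The groups overlapped, and the difference was -0.57 ± 0.26 (adjusted p = 0.597; two-sided exact permutation p = 0.0716 over the mice). Without PV2 it was -0.49. The members of lowest p in the other complexes with 8 or more members were Cox4i2 in complex IV with -0.43 ± 0.23 (adjusted p = 0.649), Uqcr11 in complex III with -0.26 ± 0.21 and Atp5g1 in complex V with 0.26 ± 0.20. Beside these values, the summed level of the 4 squamous markers that passed the filter (of 10) ran from 6.29 to 8.74 log2 CPM in PV epithelium and from 5.66 to 7.15 in WT, and that of 5 gland markers (of 7) from 7.12 to 11.60 and from 9.25 to 12.63. No marker of these lists was called, and their part in the members' values was not tested.

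In stroma 0 of 96 members and 0% of all targets were called, with a median of -0.08 over the members and 0.01 over all targets; 0 members and 524 targets had an unadjusted p under 0.05, and DESeq2 called 0 members and 2 targets. The fitted value was below 0 for 67 of 96 members and for 7142 of 14881 targets. With age as a covariate, 0 members and 0 targets were called in stroma, and 5 members and 1166 targets had an unadjusted p under 0.05. The members' median was 0.00 without WT1, -0.02 without PV5, -0.04 without PV2, -0.19 without PV3 and -0.17 with age as a covariate, and it turned to 0.07 with both plates and 0.18 on the second plate alone. On the first plate the medians were -0.09 for complex I, -0.04 for complex II, -0.02 for complex III, -0.06 for complex IV, -0.10 for complex V and -0.12 for the assembly factors. Cox6c had the lowest value, -0.57 ± 0.42 (adjusted p = 1). Uqcrc1 ran from 4.09 to 4.85 log2 CPM in PV (median 4.56) and from 4.61 to 5.17 in WT (median 4.79), with overlap, and differed by -0.28 ± 0.18 (adjusted p = 1; two-sided exact permutation p = 0.0414, unadjusted). Ndufb2 ran from 4.40 to 5.83 in PV (median 5.17) and from 5.23 to 5.92 in WT (median 5.66), and differed by -0.29 ± 0.18 (adjusted p = 1; two-sided exact permutation p = 0.0437, unadjusted). These were the only members of 96 under 0.05 by that test in stroma, and there were 0 in epithelium. That test was not run over all targets, so the count does not set the members apart from them. PV2 stroma held 4.40 for both genes, close to the 3.46 of 1 count in that sum. Standard errors ran from 0.16 to 0.42 (median 0.23). The summed level of 4 plasma cell markers (of 5) ran from 8.76 to 13.75 log2 CPM in PV stroma and from 6.67 to 11.59 in WT stroma, with none called, and its part was not tested.

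**Figure D4:**
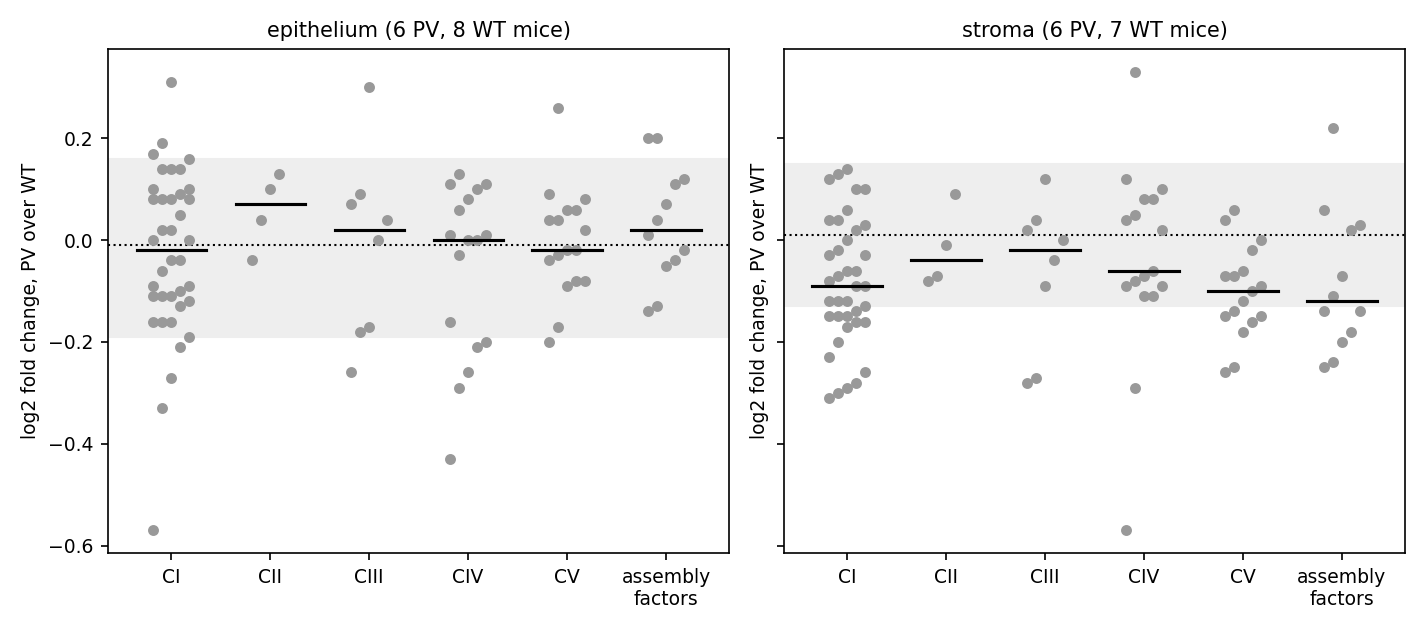
Log2 fold change of each member between PV and WT (y axis) by complex (x axis) in epithelium (left) and stroma (right). All points are grey because no member was called; black bars are group medians, the dotted line is the median of all targets and the grey band spans their quartiles. The epithelium medians lie between -0.02 and 0.07 and the stroma medians between -0.12 and -0.02.

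The spread between mice was measured in each group. The SD of a member among the mice of a group had a median of 0.59 log2 in PV epithelium and 0.25 in WT epithelium, against 0.51 and 0.31 over all targets. Without PV2 the PV median was 0.44, against 0.42 over all targets. In stroma it was 0.49 in PV (0.38 without PV2) and 0.34 in WT. Uqcrq had the widest spread in PV epithelium (SD 1.41) and Ndufc2 in WT epithelium (SD 0.55). The Uqcrq value of PV2 was 3.99 log2 CPM, the level of 1 count in that sum, and those of the other PV mice ran from 5.34 to 7.52. Epithelium sums held 61691 to 13492531 counts in PV and 1638481 to 8398111 in WT. The difference in spread between the genotypes, and the part of depth in it, was not tested.

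Other mitochondrial genes from lists drawn around the chain were compared in the same fit, where 28.6% of all targets were called higher and 34.6% lower with a median of -0.05. Of 19 genes of the tricarboxylic acid cycle and pyruvate entry, 16 were higher in epithelium and none lower (median 0.50), with Suclg1, which makes succinate, at 1.07 ± 0.09 and Pdha1 of pyruvate dehydrogenase at 0.93 ± 0.08. Of 24 genes for cytochrome c, ubiquinone and related factors, 13 were higher and none lower (median 0.27), including Cyc1 (0.85 ± 0.09) and Cycs (0.67 ± 0.12, not called with both plates, 0.12, adjusted p = 0.364), which carry electrons from complex III to IV, and Gpd2, which passes electrons of glycerol phosphate to ubiquinone (1.53 ± 0.11). Of 30 further assembly factors 11 were higher and 1 lower (median 0.15), led by Coa3 (1.13 ± 0.10) and Cox14 (0.78 ± 0.11), which act in early complex IV assembly. Of 78 mitochondrial ribosomal proteins 54 were higher and 1 lower (median 0.37), with Mrps6 at 1.63 ± 0.11.

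Most carriers and genes of fuel pathways were higher in epithelium. Of 11 carriers and channels 10 were higher (median 0.51), among them Slc25a5, the widespread ADP/ATP carrier (1.29 ± 0.13), and the pore protein Vdac2 (1.09 ± 0.11), while Slc25a4, the carrier form of heart and muscle, was lower at -0.56 ± 0.10. Of 17 glycolysis genes 14 were higher and 2 lower (median 0.98). Ldha, which makes lactate, was higher by 1.60 ± 0.15 and Pgk1 by 1.12 ± 0.12, whereas the muscle and platelet phosphofructokinases Pfkm (-0.75 ± 0.12) and Pfkp (-0.75 ± 0.16) were lower and the liver form Pfkl was higher (0.98 ± 0.14). Of 14 fatty acid oxidation genes 9 were higher and 1 lower (median 0.37), with Eci1 at 0.96 ± 0.10, Echs1 at 0.91 ± 0.11 and Acaa2 at -0.59 ± 0.09. Pfkm, Pfkp and Slc25a4, and above Atp5b, Atp5g2, Ndufaf4, Ndufb11, Ndufs8 and Ndufv1, were named after their values were seen, as is Thrb below.

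Of 17 regulators of mitochondrial gene expression, 4 were called higher and 3 lower in epithelium (median 0.15), and as a list they were called no more often than all targets. Esrra, an estrogen-related receptor, was higher by 0.82 ± 0.14 and the coactivator Ppargc1a by 0.42 ± 0.14 (adjusted p = 0.0119), a call that was lost with upper-quartile scaling (0.28, adjusted p = 0.101), per-mouse means of log2 Q3 values (0.29, adjusted p = 0.0793), both plates (0.27, adjusted p = 0.111) and without PV4 (0.36, adjusted p = 0.0537). Nrf1 was lower at -0.32 ± 0.09, Thra at -1.18 ± 0.13 and Thrb at -0.56 ± 0.12, and Tfam, which packages and transcribes mitochondrial DNA, was not called (0.16 ± 0.13, adjusted p = 0.31). No gene of any of these lists was called between PV and WT in either compartment; the lowest unadjusted p in epithelium among the regulators was that of Ppargc1b (0.67 ± 0.23, adjusted p = 0.515), followed by Ppargc1a (-0.37 ± 0.14, adjusted p = 0.541).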

How the data were processed

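The deposited count table holds, per the file headers and the methods, expected counts from the authors' GeoMx pipeline for 19962 targets and 189 regions, with 0 replaced by 1; the deposited per-region files hold probe counts with true zeros. The authors' Q3 table holds signal values, the counts divided by a third-quartile factor per region, for 14881 targets kept by detection above negative probes. The negative-probe row (0.000527% of counts) was dropped. Per the methods, the authors checked regions and probes with GeomxTools, set a limit of quantification from the negative probes and kept targets above it in a minimum share of regions. The submitters' processing notes name mm10.

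Counts of the 95 first-plate regions (61691 to 3130397 counts each) were summed per mouse and compartment, rounded, and tested two-sided with edgeR 4.0.16 (quasi-likelihood, TMM) in R 4.3.3, with Benjamini-Hochberg adjustment over 14881 targets and a threshold of 0.05. Compartments were compared with the mouse as a block: the compartments of a mouse deviated from their group means together in 13 of 13 mice (correlations 0.16 to 0.526). Levels per mouse are log2 CPM (prior count 2); SE is from the fit. Levels of different genes were not compared, since each has its own probe. The members, gene lists, marker lists and the rule for named genes (isoform families, complex II, the 3 members of lowest p per complex and comparison, members called against their complex, and 2 genes per list) were chosen with earlier results of these data known. The labels name 14 mice and the design text 13; the unit of age, months, is taken from the methods. Alternatives used DESeq2 1.42.0 and limma 3.58.1. After these fits, the edgeR tests were also run on counts simulated from the sums and fitted dispersions, with known changes put in. The file headers give a quality value for molecular identifiers but do not say how counts were deduplicated.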

Additional observations from a re-analysis of the deposited data

Results flagged for a closer look

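Among 92 sets of values of one group of mice that were examined for the isoform families, complex II, Ndufb11b and the complex means, 3 held a mouse far from the others; chance gives about 1 such set in 20. Sdhc in WT epithelium was 5.73 log2 CPM in WT5, below the next value of 6.19. Cox6b1 in WT stroma was 5.82 in WT7, below 6.63. Ndufa4l2 in WT stroma was 1.96 in WT3, below 3.45. The 3 sets do not exceed the chance rate given above. The WT7 and WT3 stroma sums came from 1 region each, with 373231 and 626631 counts, and Ndufa4l2 lay at a median of 1.55 times the negative probes. Each flagged value is the lowest of its group, and their causes were not tested.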

How the results depend on the processing

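The call of 83 members between epithelium and stroma became 70 with both plates, 74 with per-mouse means of log2 Q3 values and 81 to 85 under the other first-plate alternatives with the mouse as a block, and it stayed between 81 and 84 when any 1 mouse was left out. Without the replicate block it was 78, and the genotype by compartment term called 0 members with and without the block. On the second plate alone 0 members were called, and the medians were -0.03 for complex I, -0.06 for complexes II and III, -0.02 for complex IV and -0.08 for complex V. With both plates the medians were 0.29, 0.33, 0.34, 0.40 and 0.35 for complexes I to V, and 5056 targets were called against 9412. The median of the assembly factors was -0.10 with upper-quartile scaling, -0.02 with per-mouse means of log2 Q3 values and -0.07 with limma over regions. With both plates Cox7a1 (0.10) and Tfam (-0.03), not called in any setting, changed sign, and on the second plate alone they were 0.28 and -0.28. Within PV mice 0 members were called with both plates. Other named genes that changed sign between the compartments did so on the second plate alone, with log2 values of Sdha -0.06, Sdhb -0.05, Sdhc -0.08, Sdhd -0.04, Cox4i2 0.05, Cox6a1 -0.08, Cox6a2 0.17, Cox6b2 0.13, Cox7a2 -0.03, Cox8a -0.02, Ndufa4 -0.04, Ndufa4l2 0.04, Ndufa3 -0.02, Ndufa12 -0.05, Ndufb11b 0.07, Uqcrfs1 -0.00, Uqcrc2 -0.05, Cox5a -0.19, Atp5j -0.10, Atp5o -0.13, Atp5j2 -0.03, Ndufaf3 -0.01, Gpd2 -0.29, Cyc1 -0.11, Cox14 -0.02, Suclg1 -0.05, Pdha1 -0.04, Ldha -0.23, Pgk1 -0.25, Thra 0.29, Esrra -0.07, Vdac2 -0.02, Slc25a5 -0.16, Mrps6 -0.16, Cycs -0.33, Col1a1 0.35, Dcn 0.19, Acta2 0.52 and Myh11 0.49.

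In every alternative run, 0 members were called between PV and WT. The complex IV median in stroma was 0.22 on the second plate. For the genotype by compartment term the medians on the second plate were -0.32, -0.37, -0.38, -0.42 and -0.52 for complexes I to V, those with both plates were -0.22 for complex II and -0.30 for complex V, and that of the assembly factors was 0.22 with per-mouse means of log2 Q3 values. The causes were not tested. Depth limits PV2 most, with 61691 and 85336 counts.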
